A study of Mus musculus with 20 samples.

Results

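The 8 genes described here encode actin and the small proteins that hold, feed, cut and cap it in lymphocytes: the cytoplasmic actins Actb and Actg1, the thymosins Tmsb4x and Tmsb10, profilin 1 (Pfn1), cofilin 1 (Cfl1), coronin 1A (Coro1a) and the capping protein CapG (Capg). They were chosen by name, are all present among the 13798 genes of the expression matrix, and were read in 28192 single splenic follicular T cells from 10 C57BL/6 mice, with the cluster and condition that the study assigned to each cell. All 8 passed the filter on low values in every comparison. The mice were bone marrow chimeras, that is, irradiated recipients rebuilt with donor marrow. The 5 WT chimeras received congenic wild type marrow and were immunised with the hapten-protein conjugate NP-OVA in alum at week 6. The 5 564Igi chimeras received the same kind of marrow mixed with 564Igi marrow, which carries knocked-in heavy and light chains of a B cell receptor against ribonucleoprotein complexes, and the labels give them no immunisation. All were killed 10 weeks after irradiation, and CD4+CXCR5+PD1+ cells were sorted from the spleen, with a congenic gate (CD45.2+CD45.1-) in the study's methods. Marrow genotype and immunisation therefore differ together between the groups and cannot be told apart.

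Actin cycles between free monomers (G-actin) and filaments (F-actin), and a T cell uses this cycle to crawl and to build the contact with the cell that presents antigen to it. Beta-thymosins hold free monomers in reserve, profilin hands monomers to growing filament ends, cofilin cuts old filaments, coronin 1A works with the branching Arp2/3 complex and cofilin at the T cell cortex, and CapG caps fast-growing ends when calcium rises. Follicular helper T cells (Tfh) enter B cell follicles to help germinal centre B cells, and follicular regulatory T cells (Tfr) restrain that help.

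Tmsb10 and Tmsb4x form a pair of paralogs, and are shown base by base because their levels across the cell clusters went in different directions. The reading frames shown both have 135 bases with the stop codon, in 2 coding exons. For each thymosin the shortest annotated coding form was taken, and for the other members the longest. In the GRCm38 assembly, Tmsb10 lies on the minus strand at chr6:72957347-72958748 with coding exon parts at chr6:72957913-72958012 and chr6:72957618-72957652. Tmsb4x lies on the minus strand of the X chromosome at chrX:167207093-167213479 with coding parts at chrX:167207937-167208036 and chrX:167207501-167207535. The coding sequences from the RefSeq annotation of that assembly are given 5′ to 3′, with capitals at the bases that differ between them.
Tmsb4x: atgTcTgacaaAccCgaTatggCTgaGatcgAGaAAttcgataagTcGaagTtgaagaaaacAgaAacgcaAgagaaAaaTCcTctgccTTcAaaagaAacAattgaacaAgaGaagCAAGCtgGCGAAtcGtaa
Tmsb10: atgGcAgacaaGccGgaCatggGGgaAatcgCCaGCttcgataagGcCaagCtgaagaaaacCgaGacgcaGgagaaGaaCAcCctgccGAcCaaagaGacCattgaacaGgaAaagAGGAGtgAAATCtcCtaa
The frames share 95 bases (70.4% identity) and differ at 40, of which 8 are at the first, 7 at the second and 25 at the third position of a codon, and the longest run without a difference is 10 bases. Reads over these exons can therefore be told apart between both thymosins. The actins are closer: the Actb and Actg1 frames of 1128 bases are 88.7% identical, with 128 differences of which 120 are at the third position of a codon and 0 at the second, and a longest shared run of 62 bases. Further copies that match at least 90% of a coding sequence at 95% identity or more were found elsewhere in the assembly for Tmsb10 (5 copies), Actg1 (4) and Cfl1 (1), and for no other member. How reads that fit such a copy were assigned is not given in the sources used here, so the levels of these 3 genes are less certain on that account.

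The other members are spread over the genome, Capg on the chromosome of Tmsb10 and Pfn1 on that of Actg1. Actb is at chr5:142903115-142907976, Capg at chr6:72538282-72562983, Coro1a at chr7:126699774-126704816, Pfn1 at chr11:70651844-70656799, Actg1 at chr11:120345687-120348495 and Cfl1 at chr19:5490455-5494031.

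Libraries held between 1121 and 4030 cells and between 3424280 and 15241983 unique molecular identifiers (UMIs) a mouse, with a median of 2728 to 4375.5 UMIs a cell, and 491 cell barcodes occurred in more than 1 library. The values are UMI counts that the authors had corrected in a normalisation within each condition separately. A difference between conditions therefore also carries any difference between those corrections. Whether the covariates regressed in that normalisation, such as mitochondrial content, also changed these counts is not given in the sources used here. Cd3e was found in 98.8 to 99.8% of the cells of each mouse, and least often by cluster in central memory Tfh, at 97.5%. The markers set for the Tfr (Foxp3, Il2ra, Ikzf2), Sostdc1, central memory (Sox4, Slamf7), effector (Ccl5, Gzmk) and interferon stimulated (Ifit1, Isg15, Ifit3) clusters were highest in the cluster of that name. Of those for activated Tfh, S100a6 was highest there, whereas Tnfsf8 and Cd40lg were highest in Sostdc1 Tfh. Central memory Tfh counted 725 cells, effector Tfh 682 and interferon stimulated Tfh 379, against 11953 activated Tfh, 11650 Tfr and 2803 Sostdc1 Tfh, and a mouse with fewer than 20 cells in a cluster was not used there. Together the 8 genes held 4.26% ± 0.197 (SD, n = 10 mice) of all corrected counts, between 3.88 and 4.55% in single mice.

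Levels across the 6 clusters were compared first, as a description without a test, since the clusters were made from the expression of these same cells. A level is the mean over a mouse's cells of log2(corrected count + 1), given as mean ± SD over mice. On this scale and within this family, Tmsb10 varied most between clusters, then Capg and Actg1, whereas Actb varied least. The range between the highest and lowest cluster mean was 1.80 for Tmsb10, 0.96 for Capg, 0.72 for Actg1, 0.42 for Tmsb4x, 0.27 for Cfl1, 0.24 for Pfn1, 0.20 for Coro1a and 0.10 for Actb. The median range of the 4951 genes found in at least 10% of cells was 0.0888, and by range Tmsb10 ranked 8th of those genes and Actb 2160th. These ranges and ranks hold for this scale, which compresses differences at low counts such as those of Capg. As mean corrected counts a cell, Capg ran from 0.214 in central memory Tfh to 1.94 in Tfr. Tmsb10 ran from 18.5 in effector Tfh to 56.3 in central memory Tfh.

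**Figure D1:**
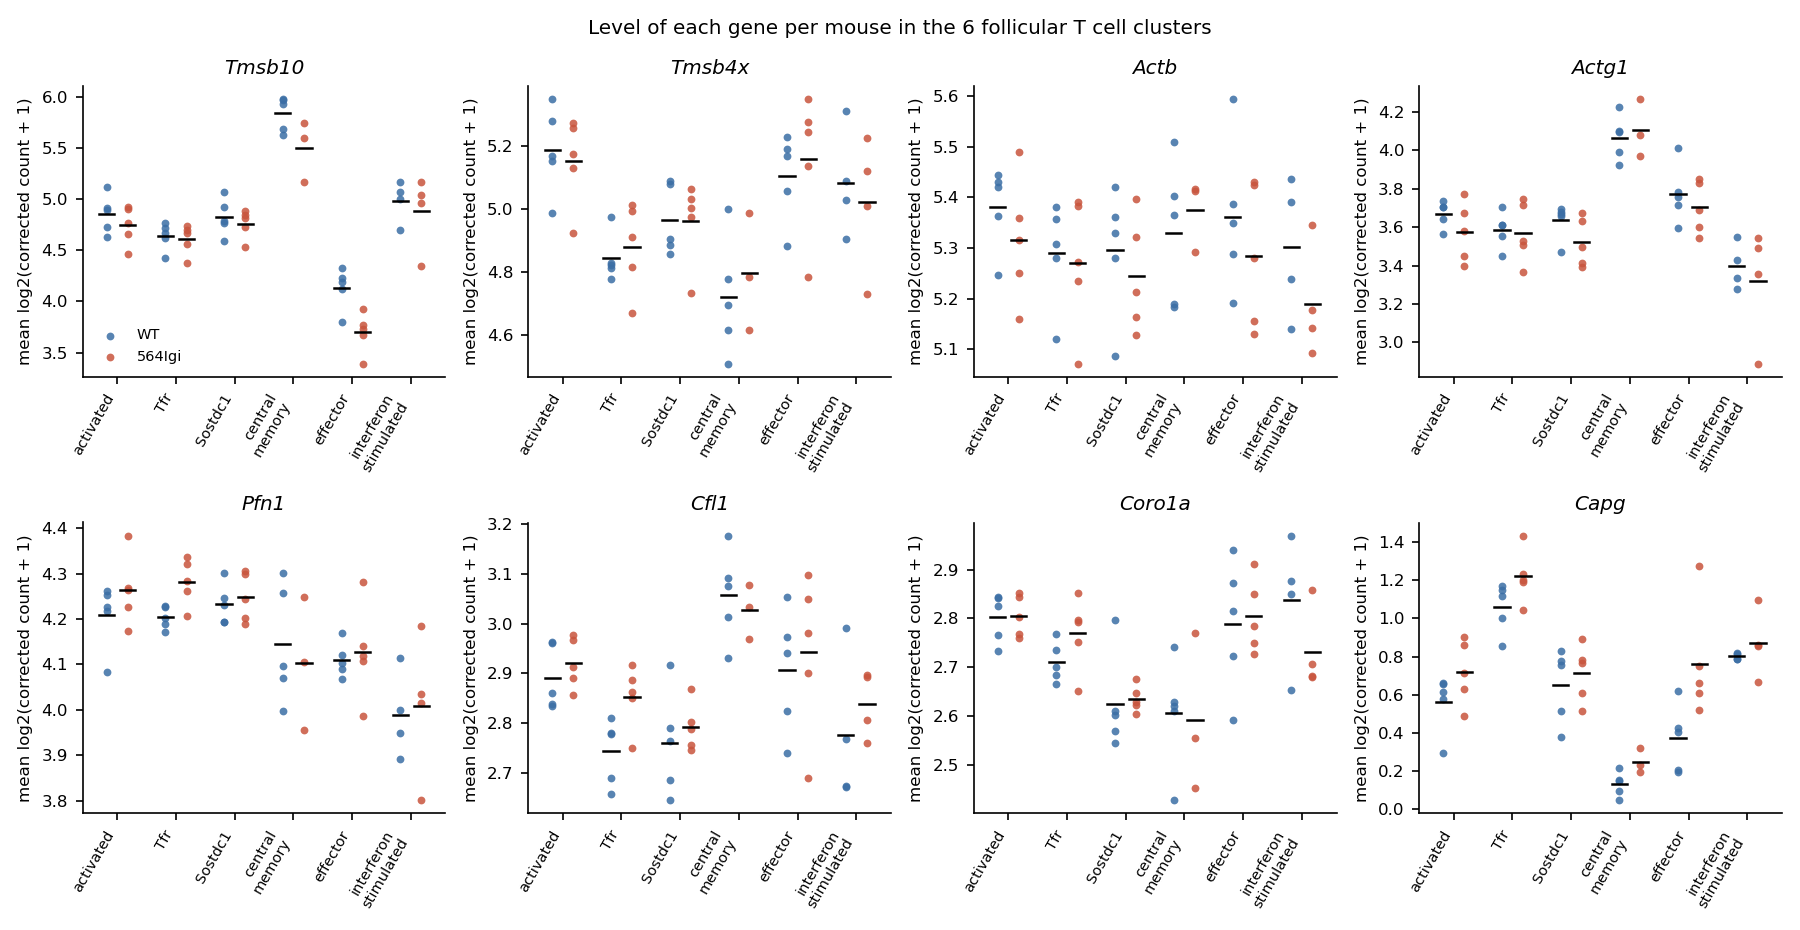
Level of each of the 8 genes in the 6 clusters, as mean log2(corrected count + 1) per mouse on the vertical axis, with a point for each mouse coloured by condition and a bar for the mean of each condition. Tmsb10 peaks in central memory Tfh and is lowest in effector Tfh, Capg peaks in Tfr, and Actb has the narrowest range of the 8, 0.10.

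The actins themselves, which form the filament, differed from each other. Actb lay between 5.25 ± 0.13 in interferon stimulated Tfh and 5.35 ± 0.10 in activated Tfh. Within a mouse this gap was 0.11 ± 0.072, with activated Tfh the higher cluster in 8 of 8 mice, so it was small and of 1 sign. Actg1 reached 4.08 ± 0.12 in central memory Tfh against 3.62 ± 0.12 in activated Tfh and 3.36 ± 0.21 in interferon stimulated Tfh. All 8 mice with enough central memory cells had more Actg1 there than in their activated Tfh, by 0.41 on average. In the 6 mice in which all 6 clusters could be read, central memory Tfh were the highest and interferon stimulated Tfh the lowest for Actg1 in each mouse.

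The thymosins, which bind monomers, went in opposite directions in central memory Tfh. Tmsb10 was 5.71 ± 0.27 in central memory Tfh, 4.93 ± 0.28 in interferon stimulated Tfh, 4.80 ± 0.19 in activated Tfh, 4.79 ± 0.15 in Sostdc1 Tfh, 4.62 ± 0.13 in Tfr and 3.92 ± 0.30 in effector Tfh. Within a mouse, activated and Sostdc1 Tfh were not separated (activated higher in 5 of 10 mice), interferon stimulated Tfh were above activated Tfh in 7 of 8, and activated Tfh were above Tfr in 10 of 10. As mean corrected counts a cell, these ends of the order were 56.3 in central memory and 18.5 in effector Tfh. Central memory Tfh exceeded activated Tfh by 0.92 ± 0.13 in 8 of 8 mice, a factor of 1.89, and effector Tfh were below activated Tfh in 10 of 10 mice, with a difference of -0.89 ± 0.31 and a factor of 0.541. Tmsb4x, in contrast, was lowest in central memory Tfh at 4.75 ± 0.18 and highest in activated Tfh at 5.17 ± 0.13, which were not separated from effector Tfh (activated higher in 5 of 10 mice). Of 8 mice, 0 had more Tmsb4x in central memory than in activated Tfh (difference -0.44), and Tfr were below activated Tfh by a difference of -0.31 in 10 of 10 mice.

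The ratio of the paralogs follows from these levels. In mean corrected counts, Tmsb10 over Tmsb4x was 0.830 over all cells, below 1 in 10 of 10 mice. It was 1.97 in central memory Tfh, above 1 in 8 of 8 mice and between 1.22 and 2.75 in single mice, and was 0.493 in effector Tfh, between 0.325 and 0.704. Actb over Actg1 was 3.16 over all cells, 2.33 in central memory Tfh and 3.57 in interferon stimulated Tfh. The genes of a pair differ in sequence, Tmsb10 and Actg1 have close copies elsewhere in the assembly, and the counts are corrected ones. A ratio is therefore read only between clusters and not as a ratio of molecules in the cell.

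**Figure D2:**
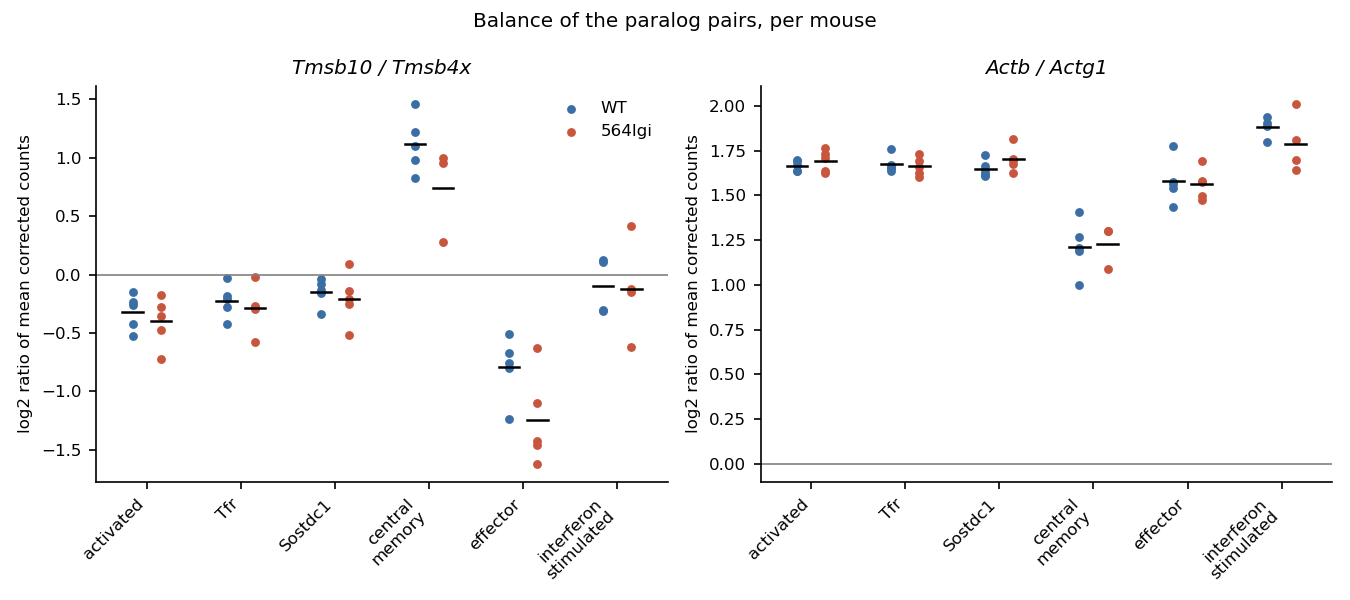
Log2 ratio of the mean corrected counts of Tmsb10 over Tmsb4x and of Actb over Actg1 per mouse, by cluster and coloured by condition, with a bar for the mean of each condition. The thymosin ratio, over the mice of both conditions, has a mean of 0.98 on the log2 scale in central memory Tfh and -1.02 in effector Tfh, and the actin ratio is lowest in central memory Tfh at 1.22.

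Pfn1, which delivers monomers to filament ends, was level in Tfr, Sostdc1 and activated Tfh, at 4.24 in each and with Tfr above activated and above Sostdc1 Tfh in 5 of 10 mice, and was lowest in interferon stimulated Tfh, where 8 of 8 mice were below their own activated Tfh, with a difference of -0.25 ± 0.11. Cfl1, which severs filaments, was highest in central memory Tfh (3.05 ± 0.077, above activated Tfh in 8 of 8 mice by 0.13 and above effector Tfh in 5 of 8) and lowest in Sostdc1 Tfh (2.78 ± 0.079). Coro1a was 2.80 ± 0.044 in activated Tfh, 2.63 ± 0.069 in Sostdc1 Tfh and 2.60 ± 0.12 in central memory Tfh. It was lower in Sostdc1 than in activated Tfh in 10 of 10 mice. Sostdc1 and central memory Tfh were not separated (Sostdc1 higher in 4 of 8 mice). For these 3 genes the range between cluster means was at most 0.27 on the log2 scale.

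Capg, the capping protein, was the only member not found in nearly every cell: the others were found in at least 98.0% of cells in each cluster as a mean over mice. Its level was 1.14 ± 0.15 in Tfr, 0.84 ± 0.12 in interferon stimulated Tfh, 0.68 ± 0.17 in Sostdc1 Tfh, 0.64 ± 0.17 in activated Tfh, 0.57 ± 0.31 in effector Tfh and 0.18 ± 0.085 in central memory Tfh. Sostdc1 Tfh were above activated Tfh in 7 of 10 mice and activated above effector Tfh in 7 of 10, by less than the SD of these within-mouse differences. The difference of Tfr from activated Tfh was 0.50 ± 0.09, higher in 10 of 10 mice. Capg was found in 61.8% of Tfr cells, 41.4% of activated Tfh cells and 13.5% of central memory Tfh cells, at median depths of 3461, 3547 and 4027 UMIs. These shares come from corrected counts and were not thinned to 1 depth. The cluster with the lowest share was thus the deepest of the 3, and that lowest share is the level against which free RNA in the droplets would have to be read, as no cell type without Capg was analysed here.

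Which genes shared these patterns was asked across the 56 means of a mouse in a cluster, as a description over 4951 genes. These points share mice, libraries and the differences in cluster makeup. The genes with the highest Pearson correlation with Tmsb10 were Evl, an Ena/VASP-like actin polymerisation factor (0.91), Id3, an inhibitor of E proteins (0.87), and Nsg2 (0.80). For Tmsb4x they were S100a4, a calcium-binding protein (0.74), Sh3bgrl3 (0.73) and Ppp1r18 (0.70), and for Coro1a S100a4 (0.65), Ppp1r18 (0.63) and Bscl2 (0.60). Capg was closest to Sdf4 (0.89), Batf, an AP-1 family transcription factor (0.86), and Tnfrsf4, which encodes the costimulatory receptor OX40 (0.83). Actg1 was closest to Tcf3, which encodes the E2A proteins (0.82), Impdh1 (0.76) and Man1a (0.76). Actb was closest to Hnrnpl (0.74), Pdcd4 (0.71) and Nudcd3 (0.69), Pfn1 to Ndufa4 (0.66), Ppil1 (0.64) and Sqstm1 (0.61), and Cfl1 to Rps6 (0.68), Septin1 (0.67) and Usp3 (0.67). Among the members, Tmsb4x was most like Coro1a (0.67), Actg1 most like Cfl1 (0.64), and Tmsb10 and Tmsb4x were opposed (-0.44), as were Capg and Actg1 (-0.52).

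From cell to cell within a cluster of a mouse, Actb went most closely with Actg1, Pfn1 and Cfl1. In activated Tfh the median Pearson correlation over 10 mice was 0.54 for Actb with Pfn1, 0.54 for Actb with Actg1 and 0.45 for Actb with Cfl1, and in Tfr it was 0.51, 0.47 and 0.35. The lowest single mouse still gave 0.46 for Actb with Pfn1 in activated Tfh. Tmsb10 was only weakly tied to any other member. Its highest correlation was with Tmsb4x, at 0.23 in activated Tfh and 0.19 in Tfr, followed by Pfn1 at 0.21 and 0.13. With Capg it was slightly negative, at -0.12 and -0.08. The pair Tmsb10 and Capg was below 0 in all 10 mice in both clusters, from -0.30 to -0.05 in activated Tfh. With the cell's total corrected count removed, Actb with Pfn1 gave 0.53 and Tmsb10 with Capg -0.12 in activated Tfh. Cells of a mouse share a library, and correlations near 0 in sparse counts such as those of Capg are values only.

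**Figure D3:**
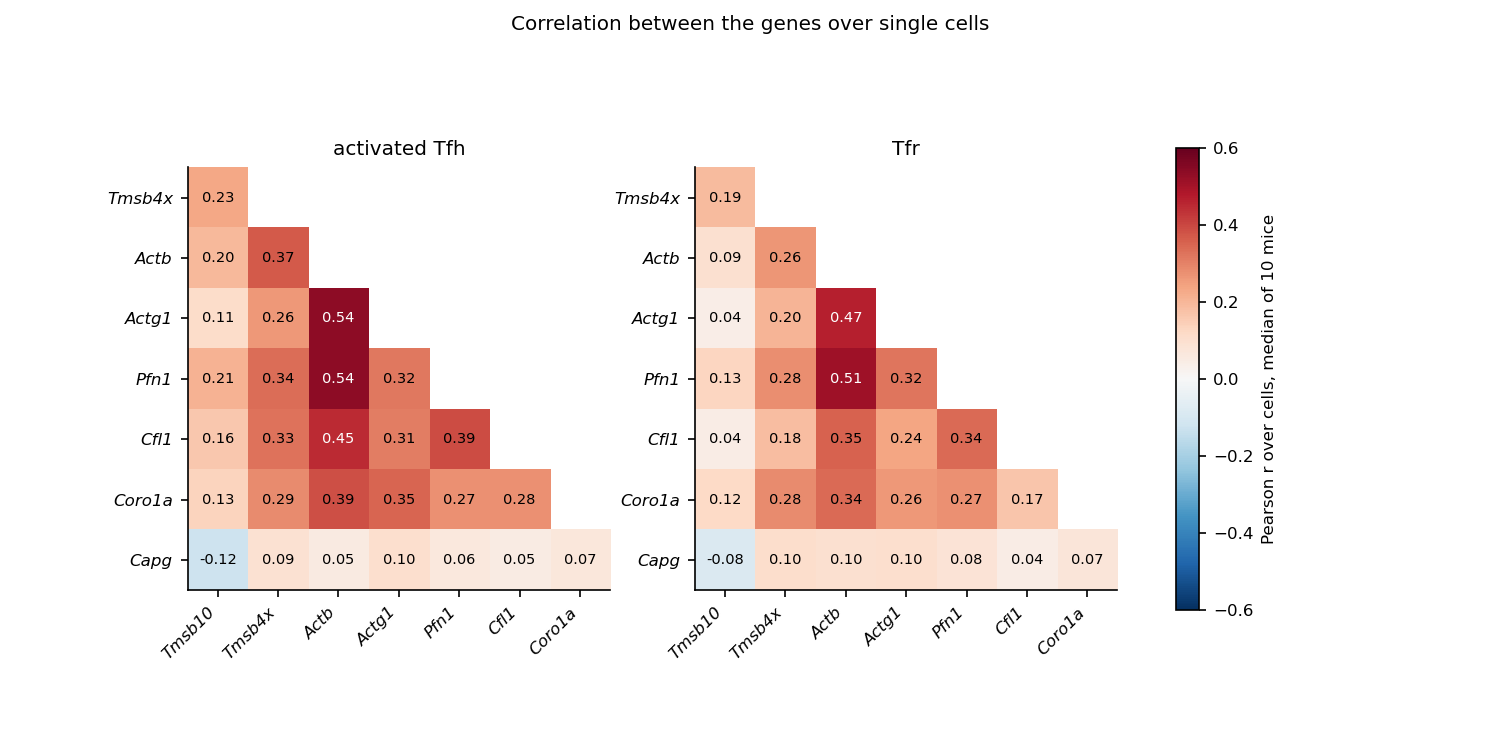
Pearson correlation between the log2 levels of each pair of the 8 genes across the cells of a mouse, as the median over 10 mice, for activated Tfh and for Tfr, with colour for the size of r. Actb with Actg1, Pfn1 and Cfl1 gives the highest values, up to 0.54, and Capg lies between -0.12 and 0.10 with every other gene.

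Whether the 8 genes differed between 564Igi and WT chimeras was tested with mice as replicates, over all cells and within each cluster. No member was called in any of the 7 comparisons (limma, Benjamini-Hochberg adjusted p below 0.01 over all genes tested and a log2 fold change beyond 0.2), and no member had 2 groups without overlap. The background of calls over all genes was nearly as empty: 0.01% of genes over all cells, 0.0101% in activated Tfh, 0.02% in Tfr, 0.0202% in Sostdc1 Tfh, 0% in central memory Tfh, 0.0104% in effector Tfh and 0.0106% in interferon stimulated Tfh. At an unadjusted p below 0.05 the same comparisons held 318, 393, 350, 455, 784, 503 and 396 genes. Groups that do not overlap occurred in 0.452% of genes over all cells, 0.385% in activated Tfh, 0.71% in Tfr, 0.84% in Sostdc1 Tfh, 4.77% in central memory Tfh, 0.882% in effector Tfh and 2.36% in interferon stimulated Tfh. The genes that were called, none of them a member, were Gm42031, Ly6a and Tpt1, named here after their values were seen.

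**Figure D4:**
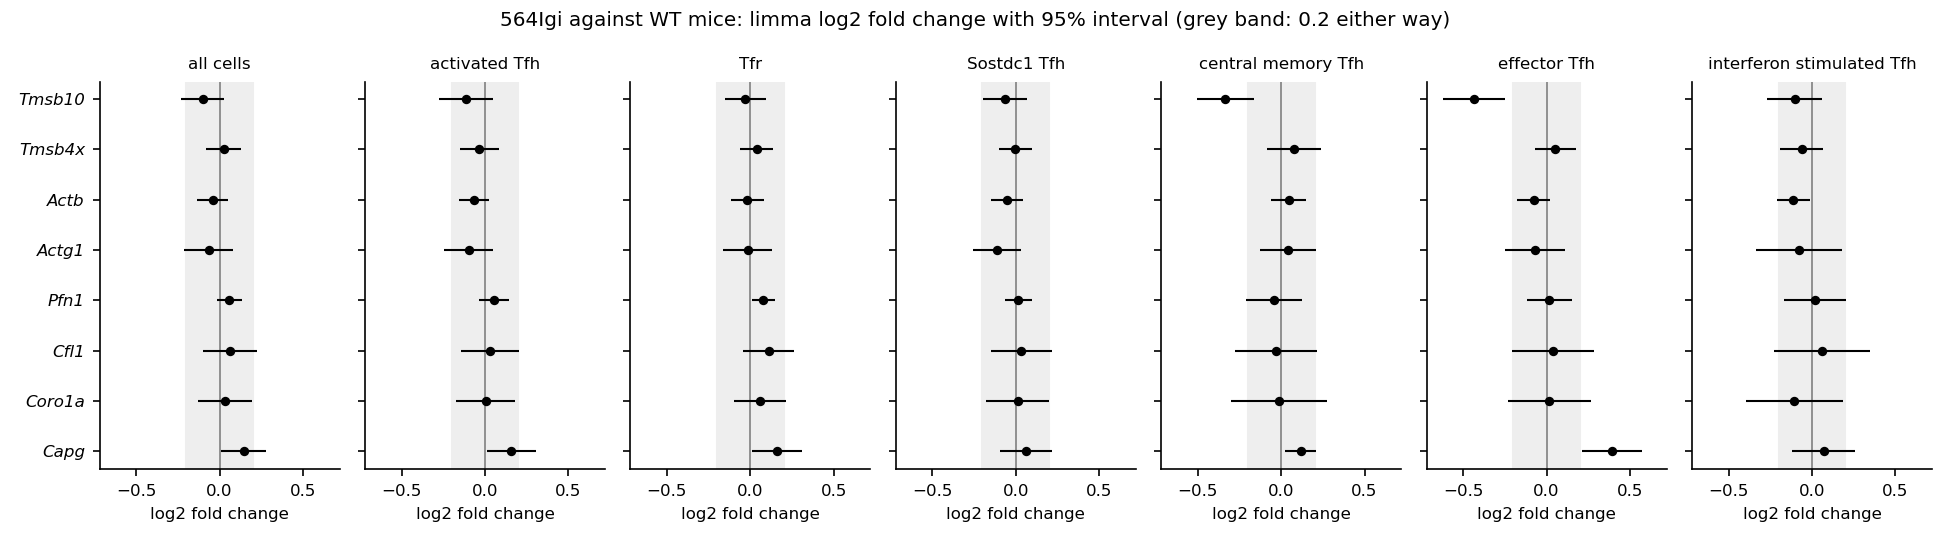
Log2 fold change of 564Igi over WT for each of the 8 genes over all cells and in each cluster, as points with 95% confidence intervals from limma. The points lie near 0 in the large clusters, and those farthest from 0 are Tmsb10 (-0.44) and Capg (0.39) in effector Tfh.

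Over all cells, the actins and thymosins lay close together in both groups. Tmsb10 was 4.70, 4.59, 4.87, 4.88 and 4.85 in WT replicates 1 to 5 and 4.83, 4.63, 4.40, 4.78 and 4.74 in 564Igi replicates 1 to 5. Tmsb4x was 4.91, 4.97, 5.00, 5.16 and 4.94 in WT and 5.13, 5.00, 5.03, 5.14 and 4.80 in 564Igi mice. Actb was 5.42, 5.39, 5.31, 5.36 and 5.17 in WT and 5.44, 5.27, 5.37, 5.25 and 5.12 in 564Igi mice. The groups overlap for all 3, with log2 fold changes of -0.10 for Tmsb10, 0.02 for Tmsb4x and -0.04 for Actb. The remaining members had log2 fold changes of -0.07 (Actg1), 0.06 (Pfn1), 0.06 (Cfl1), 0.03 (Coro1a) and 0.15 (Capg), with standard errors between 0.036 and 0.078. The balance of Tmsb10 over Tmsb4x was -0.20 ± 0.11 on the log2 scale in WT and -0.33 ± 0.21 in 564Igi mice (n = 5 each, exact two-sided permutation p = 0.286), and Actb over Actg1 was 1.65 ± 0.033 and 1.67 ± 0.056 (exact two-sided permutation p = 0.508).

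Capg was the member with the largest change over all cells, and it did not pass. It was 0.86, 0.73, 0.61, 0.82 and 0.81 in WT and 0.83, 0.996, 1.13, 0.91 and 0.70 in 564Igi mice. The 3 highest mice were 564Igi and 564Igi replicate 5 was below 4 of the WT mice, so the groups overlap. The log2 fold change was 0.15 with a standard error of 0.065 (limma adjusted p = 0.9997, exact two-sided permutation p = 0.127). Within Tfr, where Capg is highest, its difference was 0.16 with a standard error of 0.071 (limma adjusted p = 0.9998, exact permutation p = 0.103), and in activated Tfh it was 0.16 with the same standard error.

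Outside effector Tfh, a permutation p below 0.05 occurred for Pfn1 and Cfl1 in Tfr. Pfn1 was 4.23, 4.17, 4.19, 4.23 and 4.20 in WT and 4.34, 4.21, 4.28, 4.32 and 4.26 in 564Igi mice, a difference of 0.08 (exact two-sided permutation p = 0.0238). Cfl1 was 2.78, 2.69, 2.81, 2.78 and 2.66 in WT and 2.89, 2.85, 2.92, 2.86 and 2.75 in 564Igi mice, a difference of 0.11 (exact two-sided permutation p = 0.0317). The 564Igi values were mostly the higher ones, in 23 of 25 pairs of mice for Pfn1 and 22 of 25 for Cfl1, yet limma gave an adjusted p of 0.9998 for both. With 8 members in 7 comparisons, 56 such permutation tests were made, and the smallest p they can give with 5 against 5 mice is 0.00794.

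Effector Tfh, the smallest cluster in which all 10 mice could be used (23 to 173 cells a mouse), held the widest differences. Tmsb10 was 4.23, 4.12, 3.80, 4.32 and 4.19 in WT and 3.73, 3.92, 3.39, 3.67 and 3.77 in 564Igi mice. WT replicate 3 fell among the 564Igi mice, and the 564Igi mouse was the higher one in 1 of 25 pairs. The log2 fold change was -0.44 with a standard error of 0.091 and a 95% confidence interval of -0.62 to -0.25 (limma adjusted p = 0.049, exact two-sided permutation p = 0.0159), which misses the call at 0.01. At an adjusted p below 0.05 without a fold limit, Tmsb10 was 1 of 6 genes, 0.0623% of those tested. The other 5 of the 6, named after their values were seen, were Gm42031 on the higher side and Klf2, Tcf7, Id3 and Arl4d on the lower side.

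Capg in effector Tfh was 0.43, 0.20, 0.21, 0.40 and 0.62 in WT and 0.52, 1.27, 0.66, 0.61 and 0.75 in 564Igi mice. The 564Igi value was the higher one in 23 of 25 pairs, and 564Igi replicate 2 was far above the rest. The log2 fold change was 0.39 with a standard error of 0.090 (95% confidence interval 0.21 to 0.57, limma adjusted p = 0.0682, exact two-sided permutation p = 0.0238). Both effects depend on how limma models the spread: without its trend over expression level, the adjusted p was 0.618 for Tmsb10 and 0.821 for Capg, and without WT replicate 3 that of Tmsb10 was 0.00325 with a log2 fold change of -0.52, which is a call. Without WT replicate 5 and 564Igi replicate 5, whose libraries are numbered apart from the others, Capg was called at 0.46 (adjusted p = 0.00722).

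Marker levels of the cluster itself and of Tfr were read beside these effects. In effector Tfh, the summed mean corrected counts of the effector markers Ccl5 and Gzmk were 56.3 to 142 in WT and 100 to 239 in 564Igi mice, higher in the 564Igi mouse in 18 of 25 pairs. Those of the Tfr markers were 0.739 to 1.05 in WT and 0.743 to 0.967 in 564Igi mice. Neither list was at 0, and their part in the differences of Tmsb10 and Capg was not tested. The difference of 564Igi from WT in effector Tfh minus that in activated Tfh was -0.32 for Tmsb10 (limma adjusted p = 0.966, exact permutation p = 0.127) and 0.23 for Capg (exact permutation p = 0.143). The effect was thus not shown to differ between these clusters. In the 3 tests of that kind, which set Tfr, Sostdc1 and effector Tfh against activated Tfh, 0% of genes were called. At an unadjusted p below 0.05 these tests held 704, 612 and 556 genes. Their smallest exact permutation p for a member was 0.0238, for Cfl1 in Tfr minus activated Tfh (difference 0.08, limma adjusted p = 0.503).

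In central memory Tfh, with 5 WT and 3 564Igi mice, Tmsb10 was 5.68, 5.63, 5.93, 5.98 and 5.97 in WT and 5.75, 5.59 and 5.17 in 564Igi replicates 1 to 3. The low value of 564Igi replicate 3 rests on 21 cells. The log2 fold change was -0.33 with a standard error of 0.083 (limma adjusted p = 0.207, exact two-sided permutation p = 0.0893), and Ccl5 and Gzmk together were at 0.611 to 0.935 in WT and 3.52 to 6.48 in these 564Igi mice, whose part in the difference was not tested. Without 564Igi replicate 3 the log2 fold change of Tmsb10 was -0.17. In interferon stimulated Tfh, with 4 mice a group, the member with the smallest limma p was Actb, at a log2 fold change of -0.11 (adjusted p = 0.998).

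The wider actin machinery was read from 90 further genes in 11 roles, of which 88 were in the matrix. No gene of this list was called between 564Igi and WT in any comparison. Over all cells, 87 were tested, 40 were on the higher and 47 on the lower side in 564Igi mice, and the median log2 fold change was -0.003, against -0.002 over all genes. The largest absolute changes over all cells were Rhoh, an atypical small GTPase (-0.10), Rac2, the haematopoietic Rac (0.08), Arpc1b, an Arp2/3 subunit (0.08), Lcp1, the bundling protein L-plastin (-0.08), and Rhoa (0.07), each at a limma adjusted p of 0.9997. In activated Tfh they were Lcp1 (-0.13), Dock10 (-0.10), Rhoa (0.08), Tln1 (-0.08) and Actr3 (-0.08). In Tfr they were Rhoh (-0.13), Arpc1b (0.10), Myl12b (0.10), Myl6 (0.10) and Gmfg (0.09), and none of these was below an adjusted p of 0.97.

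Clone size, read from T cell receptor sequences of the same cells, gave a comparison that the clusters did not use. For each mouse, the level over cells of clones with 3 or more cells was set against that over cells whose clone had 1 cell. No member was called at the thresholds above, where the background was 0% of genes in all 3 clusters tested and the counts at an unadjusted p below 0.05 were 2173 genes in activated Tfh, 1768 in Tfr and 538 in Sostdc1 Tfh. At an adjusted p below 0.05 without a fold limit, 4 of 8 members passed in Tfr against 1.41% of genes, 2 of 8 in activated Tfh against 6.15% of genes, and 0 of 8 in Sostdc1 Tfh against 0%. All of these differences were below 0.15 on the log2 scale. The members and the background were not matched for expression level. The background reaches down to genes found in 1% of cells, whereas all members but Capg were found in nearly every cell.

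**Figure D5:**
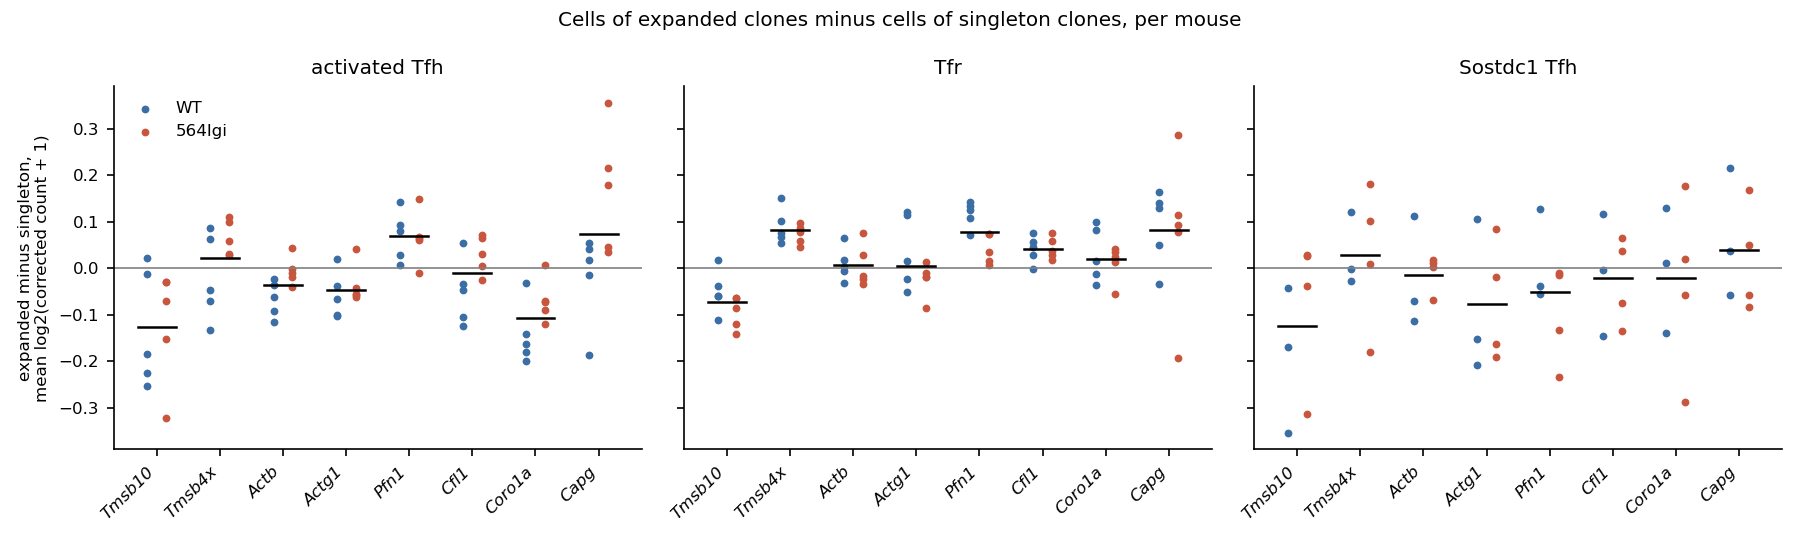
Difference in level between cells of expanded clones (3 or more cells) and cells of single-cell clones, on the log2 scale, for each of the 8 genes in activated Tfh, Tfr and Sostdc1 Tfh. Each point is a mouse coloured by condition and the bar is the mean. Tmsb4x and Pfn1 are above 0 in all 10 mice in Tfr, while Tmsb10 is below 0 in 9 of 10 mice in both Tfr and activated Tfh.

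In expanded Tfr, Tmsb4x was higher by 0.08 (4.91 against 4.83), in 10 of 10 mice and by 0.045 to 0.15 in single mice (limma adjusted p = 0.0111, exact sign flip p = 0.00195, the smallest that 10 mice can give). Pfn1 was also higher by 0.08 in 10 of 10 mice (adjusted p = 0.0317), and Cfl1 by 0.04 in 9 of 10 (adjusted p = 0.032). Tmsb10 went the other way, from 4.67 in single-cell clones to 4.60 in expanded clones, lower in 9 of 10 mice (adjusted p = 0.0397, exact sign flip p = 0.00391). In these unscaled values the thymosins thus moved in opposite directions with clone size in Tfr, by factors of 1.06 (Tmsb4x) and 0.951 (Tmsb10). The Tmsb10 difference did not stay below an adjusted p of 0.05 in limma with cells scaled to a common total, as given below.

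In expanded activated Tfh, Coro1a was lower by a difference of -0.11 in 9 of 10 mice (limma adjusted p = 0.0189, exact sign flip p = 0.00391) and Pfn1 was higher by 0.07 in 9 of 10 (adjusted p = 0.024). Tmsb10 had the largest difference, -0.13, in 9 of 10 mice, and missed this threshold (adjusted p = 0.0604, exact sign flip p = 0.00586). Sostdc1 Tfh, with 7 mice, gave differences for Tmsb10 of -0.12 (5 of 7 mice lower, exact sign flip p = 0.0938) and for Tmsb4x of 0.03, at an adjusted p of 0.826 and 0.919. No clone difference of a member passed 0.05 between 564Igi and WT mice after Benjamini-Hochberg adjustment of exact permutation p-values over 48 tests. These include the tests between clusters, and a lone member at the smallest p of 5 against 5 mice, 0.00794, could not pass. Pfn1 in Tfr differed by 0.117 in WT and 0.041 in 564Igi mice (unadjusted exact two-sided permutation p = 0.0238). In activated Tfh, Actb differed by -0.065 and -0.005 (exact two-sided permutation p = 0.0317). Capg there differed by -0.018 and 0.166 (exact two-sided permutation p = 0.0397). All other clone tests had an exact permutation p above 0.05.

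Cells of expanded clones had fewer UMIs. The median over mice was 3535.5 against 3918.5 in activated Tfh and 3457.75 against 3668 in Tfr, with the expanded cells deeper in 1 of 10 mice in each. With every cell scaled to 10000 corrected counts, the Tfr differences of Tmsb4x (adjusted p = 0.015), Pfn1 (0.0285) and Cfl1 (0.0285) and the activated Tfh difference of Pfn1 (0.0285) remained below 0.05 in limma, whereas Tmsb10 in Tfr (0.169) and Coro1a in activated Tfh (0.0519) did not. Weighting each clone equally left Tmsb4x in Tfr (0.0312) and Pfn1 in activated Tfh (0.0405) below 0.05. Of 87 tested genes of the wider actin list, 13 were lower and 1 higher in expanded activated Tfh at an adjusted p below 0.05, and 1 higher in expanded Tfr. Over all genes lower calls also prevailed: 450 lower and 146 higher of 9686 in activated Tfh (6.15% in all), and 93 lower and 45 higher of 9792 in Tfr (1.41%). The ones on the higher side, named after their values were seen, were Rac2 in activated Tfh (0.10) and Gmfg, a glia maturation factor that acts on Arp2/3 branches, in Tfr (0.11). Among the 13 lower genes were Myh9, a non-muscle myosin heavy chain (-0.10), and the crosslinkers Actn1 (-0.10) and Flna (-0.08). The median difference over the list in activated Tfh was -0.02, against -0.006 over all genes.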

How the data were processed

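Single-cell RNA and T cell receptor libraries were made per mouse on the 10x Genomics 5′ platform. Per the labels and the study's methods, the authors used Cell Ranger 4.0.0 on GRCm38 (mm10) and Seurat 3.1.4, and regressed mitochondrial and ribosomal content, UMIs and a heat shock score with sctransform in each condition separately. The deposited matrix holds the natural log of corrected UMI counts + 1, which returned whole numbers for 100% of values within 1e-06. The authors' cell table also holds UMI counts, mitochondrial percent, a heat shock score and clusters, and their receptor table holds read and UMI counts per chain. Corrected counts are not raw, so no count model was used. A doublet step is not given in the sources used here, and no doublet caller was run.

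Each mouse gave 1 value per gene and cluster, the mean over its cells of log2(corrected count + 1), and limma 3.58.1 in R 4.3.3 (trended prior variance) compared mice. A gene was kept if 1% of cells held it in enough mice to fill the smaller group. The limits were those of the study (adjusted p under 0.01, log2 fold change beyond 0.2 in either direction), with 20 cells a mouse and cluster. The study set its limits on a MAST test over single cells with Bonferroni adjustment. Here they were set on limma over mice with Benjamini-Hochberg adjustment, so the numbers of calls are not comparable. Permutations over mice were exact and two-sided. Clones were joined on barcode and mouse. Alternatives changed the filter, log, scaling, covariates, cells, thresholds or mice. The limma step was tested on values simulated for all cells, activated Tfh and Tfr, drawn independently for each gene. That test does not cover effector Tfh or the choice of limma's trend. Replicate numbers follow accession order, and mice are separate animals. Counts give depth, and intervals cover the spread between mice only. Results that rest on 1 of the central memory markers are not reported here. The members and lists were chosen with earlier results of these data known. Named genes were the members, list genes called or among the 5 largest changes, and the 3 genes most like each member.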

Additional observations from a re-analysis of the deposited data

Results flagged for a closer look

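Of 104 groups of 4 or 5 mice read for the 8 genes, 7 had a mouse set apart from its group by Dixon's criterion, where chance gives about 1 in 20 groups. Tmsb4x stood high in Tfr of WT replicate 4, at 4.97 against 4.78 to 4.83 in the other WT mice, and low in Sostdc1 Tfh of 564Igi replicate 5, at 4.74 against 4.97 to 5.06. Actg1 was low in Sostdc1 Tfh of WT replicate 5, at 3.47 against 3.66 to 3.69. Pfn1 was low in activated Tfh of WT replicate 2, at 4.08 against 4.22 to 4.26. Coro1a was high in Sostdc1 Tfh of WT replicate 3, at 2.80 against 2.55 to 2.61, and in interferon stimulated Tfh of 564Igi replicate 4, at 2.86 against 2.68 to 2.71 and from 35 cells. Capg was low in activated Tfh of WT replicate 3, at 0.29 against 0.58 to 0.66. WT replicate 5 and 564Igi replicate 5, each in 1 of these, are the 2 mice whose libraries are numbered apart from the rest.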

How the results depend on the processing

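Over the comparisons, 1776 values of the members were recomputed under alternative settings, and 10 of them passed the threshold of their own setting. These include the values called only at the laxer adjusted p below 0.05 without a fold limit. The sign changed for 123 of the 1776 values, and for 4 of these the unadjusted p was below 0.05 in either fit. In effector Tfh, 0 members were called with all mice and 1 was called at an adjusted p below 0.05 without a fold limit (Tmsb10), without WT replicate 5 and 564Igi replicate 5 (Capg, 0.46, limma adjusted p = 0.00722) and with at least 50 cells a mouse, which leaves 3 against 3 mice (Tmsb10, -0.63, adjusted p = 0.00616, with Capg at 0.25). Leaving out 1 mouse at a time gave 0 to 1, the 1 being Tmsb10 without WT replicate 3. Over those fits Tmsb10 ran from -0.52 to -0.36 and Capg from 0.26 to 0.45, and with cells scaled to 10000 Capg was 0.66 (limma adjusted p = 0.0381). Among clones, the adjusted p below 0.05 without a fold limit called 2 members in activated Tfh and 4 in Tfr, against 0. The 4 values with a changed sign and an unadjusted p below 0.05 in either fit were other ones, also among clones. Actb in activated Tfh clones changed sign with cells scaled (0.0027) and with each clone weighted equally (0.0208). With each clone weighted equally, so did Actg1 in activated Tfh clones (0.0449) and Capg in Tfr clones (-0.0403). Their cause was not tested. Without limma's trend, 0 genes were called in the comparisons of conditions, and 8 genes in activated Tfh clones and 4 in Tfr clones, 0 of them members. No paired analysis was possible because replicate numbers only follow accession order and every mouse is a separate animal in 1 group. Small clusters limit the depth: central memory Tfh gave 165 cells in all 564Igi mice.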

Other observations

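Within the wider actin list, the widest ranges across clusters are given for genes picked after their values were seen, with no test. Of these, Rac2, Lcp1, Arpc1b, Myl12b and Evl were already named for other values. Rac2, the haematopoietic Rac GTPase, ran from 3.25 in Sostdc1 Tfh to 2.16 in central memory Tfh on the log2 scale, a range of 1.09. Lsp1, a leukocyte actin-binding protein, ran from 1.45 in effector Tfh to 0.78 in central memory Tfh. Evl ran the other way, from 0.89 in central memory Tfh to 0.28 in effector Tfh, the same order of ends as Tmsb10. Myl12b (2.22 and 1.66), Lcp1 (1.99 and 1.45) and Arpc1b (2.24 and 1.72) were likewise highest in effector and lowest in central memory Tfh, and Vim was lowest there at 0.39.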
